A study of Drosophila melanogaster with 12 samples.

Results

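The genes that make, load or recover the monoamine transmitters of the fly were followed through 6 groups of head RNA. They were taken by gene name from the deposited expression table. They are Trh, ple, Ddc, Tdc1, Tdc2, Tbh, DAT, SerT and Vmat, and each of the 9 names was found once among the 15104 genes of the table. All 9 reached 1 FPKM (a count of mapped fragments scaled for transcript length and library size) in at least 1 group, as did 11181 genes in all, and 8 reached 5 FPKM, Tbh being the one that did not.

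Serotonin, dopamine, tyramine and octopamine are each made by a few neurons that release them widely. An aromatic amino acid is hydroxylated (by Trh for serotonin, by ple for dopamine) and then decarboxylated by Ddc, which serves both pathways. Tyramine comes from tyrosine through a tyrosine decarboxylase, Tdc1 or Tdc2, and Tbh hydroxylates it to octopamine. Vmat loads all of these amines into vesicles, and SerT and DAT take serotonin and dopamine back up from outside the cell. In insects dopamine is also a precursor of cuticle pigment and of the compounds that harden cuticle, so ple and Ddc work in the epidermis as well as in neurons, and a form of Vmat is known in glia of the fly visual system.

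The flies were adult Drosophila melanogaster, all of 1 strain background per the labels. All carried 1 copy of UAS-GFP-L10A, a GFP-tagged protein of the large ribosomal subunit, which was driven by 1 copy of Elav-Gal4 in neurons, of repo-Gal4 in glia or of takeout-Gal4 in the fat body. For each driver, RNA was taken from a lysate of 1000 heads (Input) and from the ribosomes that a GFP antibody pulled out of it (IP, or pull-down), which gave 6 groups of 2 biological replicates. The 6 groups include no IP from heads without the tag, and the labels do not give the sex of the flies.

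The authors had combined both replicates of a group into 1 FPKM, so the values carry neither a standard deviation nor an n, the depth behind it is unknown, and the order of neighbouring levels could not be set against their spread. The only test is the q-value that the authors' deposited table gives for each pair of IPs. Log2 ratios are of FPKM plus 1, which understates the change of low genes, and a ratio without a q was counted from 2-fold upwards. Folds printed between IPs are of FPKM as deposited, and counts from 2-fold upwards use the log2 ratios. The columns differ in scale. Aligning the columns on the median of the 5599 genes that had 5 FPKM or more throughout (median scaling) moved their log2 IP/Input by -0.50 in the neuronal line, -0.45 in the glial line and -0.77 in the fat body line. Giving all columns the same sum once genes of ribosomal proteins were set aside (total scaling) moved it by -0.55, -0.72 and -1.43. The percentile of a gene among all genes compared, given below, is little touched by such shifts.

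The IPs were read against 8 markers of each tagged cell type. Of the glia markers 7 were at least 2-fold higher in the glial IP than in its Input, and their summed FPKM was 3257 in the glial IP against 1061 in the neuronal IP and 1514 in the fat body IP. Of the fat body markers 7 were at least 2-fold higher in the fat body IP than in its Input. Under total scaling Yp1, Yp2, Yp3 and Rfabg turned to -0.36, -0.29, -0.14 and -0.11 on the log2 scale there. The gene takeout (to) had 55.8 FPKM in the glial IP and 44.4 in that of the fat body. It did not pass between them (q = 0.130 in the authors' deposited table). Against their Inputs, 18.7% of all genes were higher in the glial IP and 27.5% in the fat body IP. In the neuronal IP 13.1% were lower. Of the neuron markers 7 were at least 2-fold lower in the neuronal IP than in its Input, elav at 3.48 against 15.0 FPKM among them, although their sum was larger in the neuronal IP (535.5) than in the glial IP (93.9) or the fat body IP (180). Of the 8 neuron markers, 6 passed as higher in the neuronal IP than in the glial IP and 2 (n-syb and Syn) than in the fat body IP, by q in the authors' deposited table, and elav and cpx passed in neither. Of 5 photoreceptor markers, all passed as higher in the neuronal IP than in the glial IP and 3 than in the fat body IP in the authors' deposited table. Against the neuronal lysate, Arr2 and inaD were more than 2-fold higher and norpA was more than 2-fold lower (median log2 of the 5, 0.85), and their sum was 22580 FPKM in the neuronal IP against 10477 in its Input, and 3796 and 7516 in the glial and fat body pull-downs. The glial IP was also high in some markers of cuticle-forming epidermis. Their sum was 4809 FPKM against 835 and 379 in the neuronal and fat body IPs, and Acp1 alone had 4353 of it. Of these 8 markers 4 passed as higher and 1 (Cpr72Ec) as lower in the glial IP than in the neuronal IP, in the authors' deposited table. None of the markers was listed at 0 in any group. In bulk samples of this kind, fewer cells of a type and less RNA per cell cannot be told apart.

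In the lysates the genes fell into 2 tiers of level. Ddc had 59.9, 60.0 and 60.3 FPKM in the neuronal, glial and fat body lysates, and Vmat had 48.3, 36.0 and 39.3. ple had 54.6, 25.2 and 31.2. The other 6 genes lay between 1.56 FPKM (Tbh in the glial Input) and 8.97 FPKM (Trh in the neuronal Input). Between lysates, ple was the only one of the 9 past 2-fold, higher in the neuronal Input than in the glial Input (log2 1.08, or 0.85 and 0.86 under median and total scaling). Over all genes 11.2% were past 2-fold in either direction between the neuronal and glial Inputs, 0.942% between the neuronal and fat body Inputs and 8.33% between the glial and fat body Inputs. The 8 neuron markers also stood higher in the neuronal Input than in the glial Input, by a median log2 of 0.98, and their part in the ple difference was not tested. As deposited, Ddc differed between lysates by at most 0.01 on the log2 scale. Between the neuronal and glial Inputs the median log2 of all genes was 0.23. Median and total scaling moved that comparison by -0.24 and -0.22, so the evenness of Ddc depends on the scale.

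Trh, the neuronal tryptophan hydroxylase and first enzyme of serotonin synthesis (FBgn0035187, listed as Trhn in later annotation, on chromosome arm 3L), had 8.97 FPKM in the neuronal Input and 67.1 in the neuronal IP. It had 5.23 in the glial Input and 1.41 in the glial IP, and 5.74 in the fat body Input and 3.23 in the fat body IP. The neuronal IP was thus above its lysate and above all other groups, and the glial and fat body IPs were below every lysate. In neurons log2 IP/Input was 2.77, above 99.7% of 11119 genes, and in glia it was -1.37, above 9.86% of 11116. Between IPs, Trh was 47.7-fold higher in neurons than in glia and 20.8-fold higher than in the fat body, and the authors' deposited table lists both q-values as 0. It was also lower in the glial IP than in the fat body IP (q = 0.0477 in the authors' deposited table). There Trh shares 89 exon bases with CG13912 on the opposite strand, which stood at 8.67 FPKM in the glial IP and at 160 in that of the fat body. Whether the counting used strand is not given in the sources used here, and the part of CG13912 in the fat body value was not tested.

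SerT, the plasma membrane transporter that recovers serotonin (FBgn0010414, arm 2R), followed Trh in neurons and not in glia. It had 7.66 FPKM in the neuronal Input and 26.7 in the neuronal IP, a log2 of 1.68. In glia it had 6.48 in the Input and 6.72 in the IP, and in the fat body 7.87 and 5.45. The neuronal IP stood apart, while the other 5 groups lay close together. Log2 IP/Input was 0.05 in glia, turning to -0.37 and -0.62 under median and total scaling, and -0.46 in the fat body. SerT was 3.98-fold higher in the neuronal IP than in the glial IP (q = 0.000102 in the authors' deposited table). It was 4.91-fold higher than in the fat body IP (q = 3.05e-06 in the authors' deposited table). The glial and fat body IPs differed by 1.23-fold (q = 0.348 in the authors' deposited table).

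**Figure D1:**
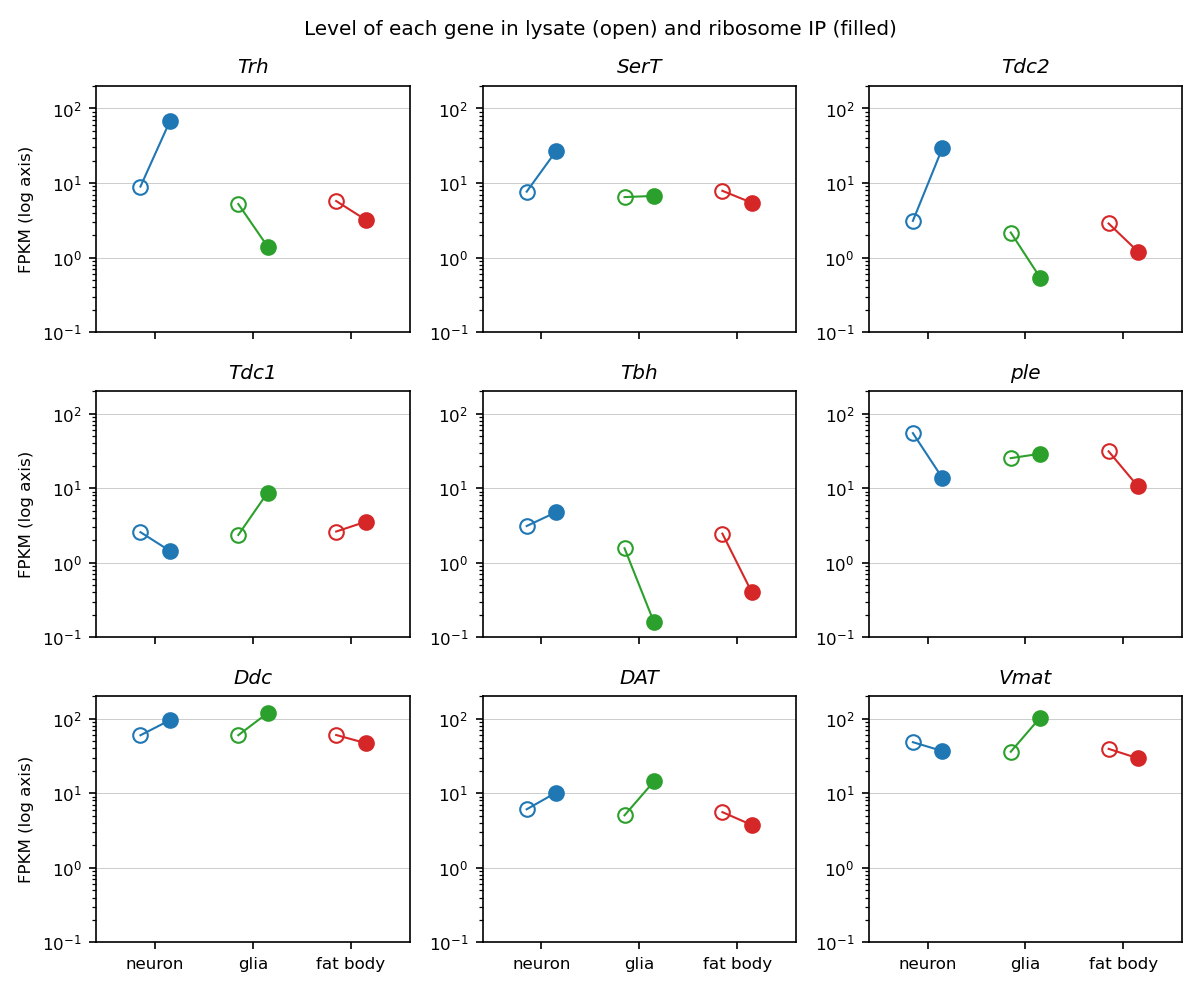
FPKM (log axis) of each of the 9 genes in the lysate (open circles) and in the ribosome IP (filled circles) of the neuron, glial and fat body lines, 1 value per group. Trh, Tdc2 and SerT are highest in the neuronal IP at 67.1, 29.1 and 26.7 FPKM, while Vmat, Ddc, DAT and Tdc1 are highest in the glial IP at 103, 119, 14.4 and 8.73 FPKM.

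Tdc2, the tyrosine decarboxylase of neurons (FBgn0050446, arm 2R), had the pattern of Trh. It had 3.11, 2.17 and 2.87 FPKM in the neuronal, glial and fat body lysates, and 29.1, 0.541 and 1.21 in the IPs. The neuronal IP was far above all lysates and both other IPs were below them. Log2 IP/Input was 2.87 in neurons, above 99.7% of genes, -1.04 in glia and -0.81 in the fat body. Tdc2 was 53.8-fold higher in the neuronal IP than in the glial IP (q = 5.99e-06 in the authors' deposited table) and 24.1-fold higher than in the fat body IP (q = 1.04e-09 in the authors' deposited table). Its glial IP value was under 1 FPKM. On the log2 scale of FPKM plus 1, Tdc2 stood at 4.29 between the neuronal and glial IPs, beside 4.82 for Trh.

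Tdc1, the tyrosine decarboxylase known for its use outside neurons (FBgn0259977, arm 2R), went the other way. It had 2.57, 2.36 and 2.62 FPKM in the neuronal, glial and fat body lysates, and 1.44, 8.73 and 3.54 in the IPs. The glial IP was highest and the neuronal IP lowest. Log2 IP/Input was 1.53 in glia (0.96 under total scaling), -0.55 in neurons and 0.33 in the fat body, the last turning to -0.28 and -0.77 under median and total scaling. Tdc1 was higher in the glial IP than in the fat body IP (2.47-fold, q = 0.000317 in the authors' deposited table). Although 6.05-fold higher in the glial IP than in the neuronal IP, it did not pass there (q = 0.519 in the authors' deposited table). Both Tdc genes lie inside Rpp25 on the opposite strand. Tdc1 shares 246 exon bases with it and Tdc2 none (0 bases). Rpp25 had 28.1, 22.3 and 26.2 FPKM in the neuronal, glial and fat body pull-downs, and its part in the Tdc1 values was not tested.

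Tbh, which hydroxylates tyramine to octopamine (FBgn0010329, chromosome X), was the lowest of the 9 in 4 groups, Tdc1 being lower in the neuronal lysate and IP. It had 3.11, 1.56 and 2.46 FPKM in the neuronal, glial and fat body lysates, and 4.75, 0.160 and 0.404 in the IPs. Its IP values in glia and the fat body were under 1 FPKM, and in neurons it exceeded its lysate by less than 2-fold (log2 0.49). In glia and the fat body log2 IP/Input was -1.14 and -1.30, each past 2-fold. Tbh was 29.6-fold higher in the neuronal IP than in the glial IP (q = 3.53e-10 in the authors' deposited table) and 11.8-fold higher than in the fat body IP (q = 0.000309 in the authors' deposited table). At these levels a ratio rests on few fragments, and how few is not known.

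ple, the tyrosine hydroxylase that starts dopamine synthesis (FBgn0005626, arm 3L), was not 2-fold higher in any IP than in its lysate. Against 54.6, 25.2 and 31.2 FPKM in the neuronal, glial and fat body lysates it had 13.8, 28.9 and 10.5 in the IPs. The neuronal and fat body IPs were below all lysates, and the glial IP lay within the range of the lysates. Log2 IP/Input was -1.91 in neurons, above only 3.07% of genes, and -1.48 in the fat body, above 4.36%. In glia it was 0.19, which turned to -0.27 and -0.54 under median and total scaling and lay near the middle of all genes (above 54.5%). Between IPs, ple was higher in glia than in the fat body (2.74-fold, q listed as 0 in the authors' deposited table). The neuronal IP stood at 0.477 times the glial IP and just missed the threshold (q = 0.0592 in the authors' deposited table), and at 1.31 times the fat body IP (q = 0.611 in the authors' deposited table).

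Ddc, the aromatic amino acid decarboxylase shared by dopamine and serotonin synthesis (FBgn0000422, arm 2L), was the most abundant of the 9 in each IP. It had 95.3, 119 and 47.0 FPKM in the neuronal, glial and fat body pull-downs against about 60 in each Input. The neuronal and glial IPs were above the lysates, by log2 0.66 and 0.98, and the fat body IP was below, by -0.35. As deposited, none of them was past 2-fold. Under median and total scaling the neuronal and glial values were smaller, and the fat body value was past 2-fold lower. Ddc was 2.54-fold higher in the glial IP than in the fat body IP (q = 1.16e-12 in the authors' deposited table). The neuronal IP stood at 0.800 times the glial IP (q = 0.750 in the authors' deposited table) and at 2.03 times the fat body IP (q = 0.127 in the authors' deposited table). CG10561 shares 88 exon bases with Ddc on the opposite strand and had 82.5 FPKM in the neuronal IP against 21.1 and 25.7 in the glial and fat body IPs, and its part in the Ddc values was not tested.

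DAT, the transporter that recovers dopamine (FBgn0034136, arm 2R), had a profile closer to that of Ddc than to that of ple. It had 6.09, 5.06 and 5.58 FPKM in the neuronal, glial and fat body lysates, and 10.2, 14.4 and 3.75 in the IPs. The glial IP was highest, the neuronal IP next, and the fat body IP was below every lysate. Log2 IP/Input was 0.66 in neurons, 1.34 in glia (0.94 and 0.69 under median and total scaling) and -0.47 in the fat body. DAT was higher in the neuronal IP than in the fat body IP (2.71-fold, q = 0.0146 in the authors' deposited table) and in the glial IP than in the fat body IP (3.83-fold, q listed as 0 in the authors' deposited table). The neuronal IP stood at 0.708 times the glial IP (q = 0.522 in the authors' deposited table).

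Vmat, the vesicular transporter (FBgn0260964, arm 2R), was highest in the glial IP. It had 48.3, 36.0 and 39.3 FPKM in the neuronal, glial and fat body lysates, and 36.8, 103 and 29.4 in the IPs. The glial IP was above every other group, and the neuronal and fat body IPs were below their own lysates. Log2 IP/Input was 1.49 in glia, above 91.2% of genes (0.76 under total scaling), -0.38 in neurons and -0.41 in the fat body. Vmat was 3.50-fold higher in the glial IP than in the fat body IP, with q listed as 0 in the authors' deposited table. It stood 2.79-fold higher in the glial IP than in the neuronal IP, which missed the threshold (q = 0.0618 in the authors' deposited table). The neuronal and fat body IPs differed by 1.25-fold (q = 0.802 in the authors' deposited table). Later annotation gives Vmat 4 transcripts of 2446 to 7325 bases, which the single value per gene does not separate. CG13330 lies inside Vmat on the opposite strand and shares 2129 exon bases with it. It had 9.55 FPKM in the neuronal IP, 0.203 in the glial IP and 0.0537 in the fat body IP, and its part in the Vmat values was not tested.

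**Figure D2:**
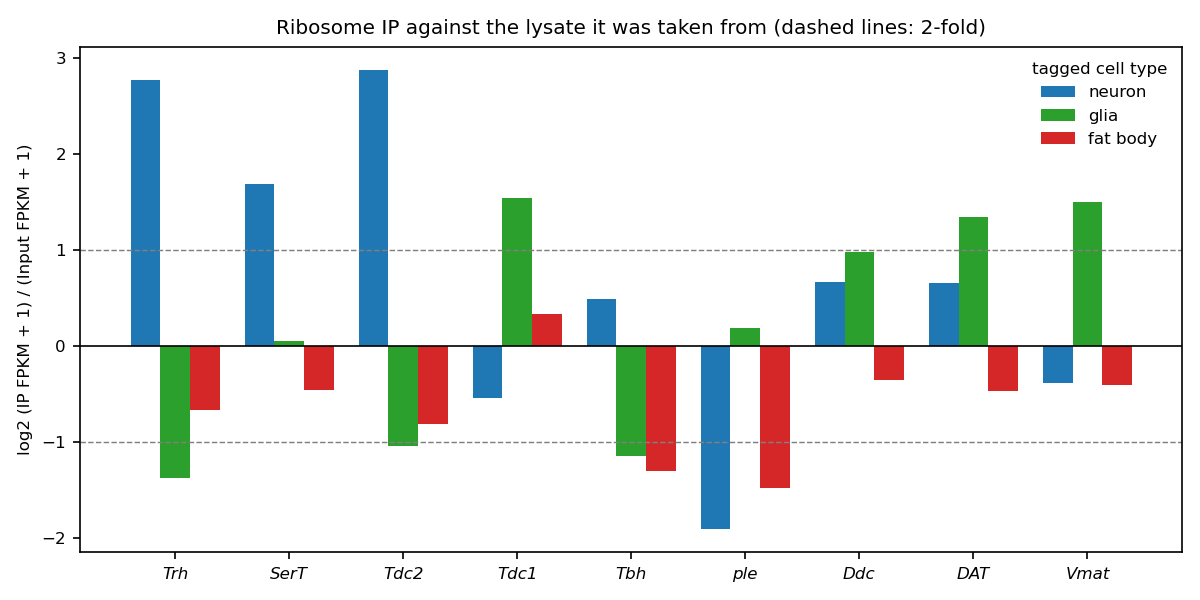
Log2 of IP over Input (FPKM plus 1, bars) for each of the 9 genes in the neuron, glial and fat body lines, with dashed lines at 2-fold. Trh, Tdc2 and SerT have the high neuron bars (2.77, 2.87 and 1.68), Tdc1, Vmat and DAT the high glia bars (1.53, 1.49 and 1.34), and ple the lowest bar (-1.91, in neurons).

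Counted over the 9 genes, 3 were at least 2-fold higher (Trh, Tdc2 and SerT) and 1 lower (ple) in the neuronal IP than in its Input. Over all genes 19% were higher and 13.1% lower. The photoreceptor markers, with a median log2 of 0.85, also stood above their lysate there, norpA excepted, and their part in the values of Trh, Tdc2 and SerT was not tested. The median log2 of the 9 genes was 0.66, and that of all genes was -0.00213. In the glial IP 3 were higher (Tdc1, Vmat and DAT) and 3 lower (Trh, Tbh and Tdc2), against 18.7% higher and 19.7% lower over all genes. The median of the 9 was 0.19 (negative under both scalings) beside 0.05 for all genes. Under median scaling the glia split was 2 higher and 3 lower, beside 9.92% and 30.4% of all genes, and with total scaling it was 0 and 3, beside 7.19% and 36.7%. In the fat body IP 2 were lower (ple and Tbh), against 10.2% lower and 27.5% higher over all genes, with a median of -0.47 beside 0.10. Under median and total scaling 8 of the 9 were past 2-fold lower there, beside 24.3% and 43.5% of all genes. Tdc1 was the exception under both.

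The IPs were also compared with one another to ask which of these transcripts the tagged ribosomes of one cell type held more of, using the q-values of the authors' deposited table. The 3 comparisons share their groups pairwise. Trh, Tdc2, Tbh and SerT passed as higher in the neuronal IP than in the glial IP, 4 of 9 against 15.5% of 11181 genes. A further 15.3% of genes passed as lower there, none of the 9 among them, and the table used here holds no unadjusted p. ple, Tdc1 and Vmat were past 2-fold lower there without passing (q = 0.0592, 0.519 and 0.0618 in the authors' deposited table). Tdc1 did pass between the glial and fat body IPs, at 2.47-fold, so missing the threshold here does not mean equal levels. Passing as higher in the neuronal IP than in the fat body IP were Trh, Tdc2, Tbh, SerT and DAT, 5 of 9 against 9.32%. As lower there passed 11.9% of genes and none of the 9. In the glial IP against the fat body IP 5 passed as higher, namely ple, Ddc, Tdc1, DAT and Vmat, against 12.9% of genes. Trh alone passed as lower there, against 31.6%. Of these 6 calls, that of Trh was lost at q under 0.01. At that threshold DAT was lost as well between the neuronal and fat body IPs, leaving 4.

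Setting each IP against its own lysate before comparing cell types gave the same 4 genes on the neuronal side against glia. The measure holds the same IP values, so it is no separate test of them. The difference of log2 IP/Input between neurons and glia was at least 2-fold in 7 of the 9 genes, 4 higher in neurons and 3 lower, against 13.5% higher and 16.2% lower over all genes. It was 4.14 for Trh, 3.91 for Tdc2, 1.63 for SerT and 1.63 for Tbh, and -2.10 for ple, -2.08 for Tdc1 and -1.87 for Vmat. DAT (-0.69) and Ddc (-0.32) did not reach 2-fold. Between neurons and the fat body 6 were higher, against 9.77% of genes, from 1.02 for Ddc to 3.68 for Tdc2, and Vmat stood at 0.03. Between glia and the fat body 5 were higher, against 9.97%, from 1.21 for Tdc1 to 1.90 for Vmat, with ple at 1.67.

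Ratios between genes within a group do not depend on how columns are scaled, and FPKM is per length. Trh stood at 1.17, 0.807 and 0.730 times SerT in the neuronal, glial and fat body lysates. In the IPs the ratio was 2.51, 0.209 and 0.593. The level of the enzyme exceeded that of the transporter in the neuronal IP and lysate, and was below it in the other 4 groups. Tdc2 and Tbh were at nearly equal levels in the lysates (1.00, 1.39 and 1.17). Tdc2 exceeded Tbh by 6.12, 3.37 and 2.99 times in the neuronal, glial and fat body pull-downs. For glia and the fat body these ratios rest on Tbh at 0.160 and 0.404 FPKM and on Tdc2 at 0.541 and 1.21. Tdc2 and Tdc1 were also near parity in the lysates, at 1.21, 0.921 and 1.10. In the neuronal IP Tdc2 was 20.2 times Tdc1 (1.44 FPKM), and in the glial IP Tdc1 was 16.1 times Tdc2 (0.541 FPKM). Of the 2 decarboxylases, Tdc2 passed between these IPs and Tdc1 did not (q = 0.519 in the authors' deposited table).

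Ddc was 1.10, 2.38 and 1.94 times ple in the neuronal, glial and fat body lysates and 6.92, 4.12 and 4.46 times ple in the IPs. The ratio was higher in each IP than in every lysate. ple to DAT went the other way, from 8.97, 4.99 and 5.59 in the lysates to 1.35, 2.01 and 2.81 in the IPs. Vmat kept its ratio to DAT in 5 groups, at 7.05 to 7.94, and stood at 3.62 in the neuronal IP. Vmat to Trh was 5.39 to 6.87 in the lysates, 0.549 in the neuronal IP, 73.3 in the glial IP and 9.10 in the fat body IP. Of the summed FPKM of the 9 genes, Trh took 23.5% in the neuronal IP and 0.497% in the glial IP, and Vmat 12.9% and 36.4%. Ddc took 33.4% and 42.1%. The sum itself was alike in both, at 285 and 283 FPKM, and lower in the fat body IP at 104.

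**Figure D3:**
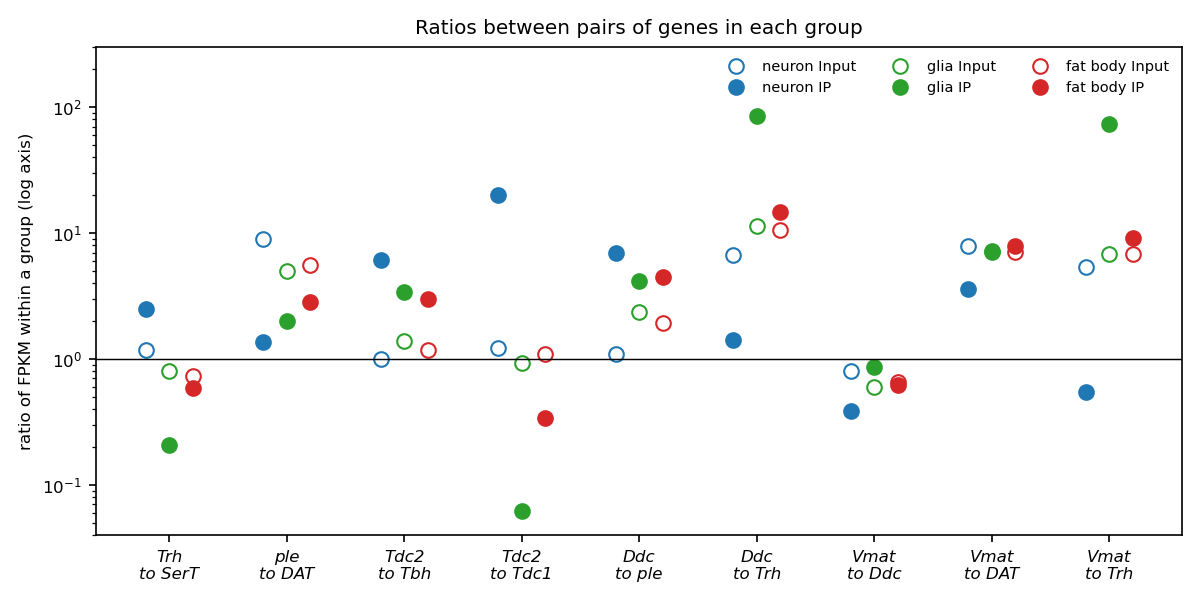
Ratio of FPKM between pairs of the genes within each group (log axis), with open circles for lysates and filled circles for IPs, 1 value per group, and a line at equal levels. Tdc2 to Tdc1 runs from 20.2 in the neuronal IP to 0.0620 in the glial IP, where Tdc2 had 0.541 FPKM. Its lysate values are 0.921 to 1.21, while Vmat to Ddc stays between 0.387 and 0.864.

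Other genes of the monoamine pathways were read from lists. Of 8 genes for the pteridine cofactor of the hydroxylases and for related steps, none passed between the neuronal and glial IPs, with 30.8% of genes passing in either direction in the authors' deposited table. Pu, the GTP cyclohydrolase that begins cofactor synthesis, had 795, 535 and 480 FPKM in the neuronal, glial and fat body pull-downs and 337 to 482 in the Inputs. Hn, the phenylalanine hydroxylase that shares the cofactor, had 161, 161 and 984 FPKM in the neuronal, glial and fat body pull-downs. Dhpr, the dihydropteridine reductase, had 173, 175 and 599. Hn and Dhpr were thus the list members that passed as higher in the fat body IP than in both other IPs (q under 0.05 in the authors' deposited table).

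Of 4 genes of amine conjugation, e and Dat passed as higher in the glial IP than in the neuronal IP, and t as lower, in the authors' deposited table. Dat, the arylalkylamine N-acetyltransferase (FBgn0019643, a different gene from DAT), had 438 FPKM in the neuronal IP, 1544 in the glial IP and 317 in the fat body IP, against 219 to 262 in the Inputs. e (ebony), which joins beta-alanine to dopamine and histamine, had 30.1, 166 and 51.4 in the IPs. t (tan), which splits these conjugates, had 90.8, 9.97 and 15.7. Of the 8 cuticle markers, 4 passed as higher in the glial IP than in the neuronal IP in the authors' deposited table (Acp1, Cpr49Ab, Ccp84Ab and e). Acp1 had 4353 FPKM in the glial IP against 731 in the neuronal IP. Cpr72Ec passed in the other direction, at 14.7 against 51.6 FPKM (q = 0.000516 in the authors' deposited table), and 3 did not pass. The 8 cuticle markers, of which e is one, had a median log2 of 1.39 between the glial IP and its Input. As deposited, all 8 were above 0 on that scale, where the median of all genes was also above 0, at 0.05. Cpr72Ec turned to -0.006 under total scaling. Of the 9 monoamine genes 6 were above 0 as deposited, namely Tdc1, Vmat, DAT, Ddc (0.98), ple (0.19) and SerT (0.05). Of these, ple and SerT lay near the middle of all genes (above 54.5% and 49.9%) and turned below 0 under median and total scaling. Of the 4 conjugation genes 3 were above 0 (Dat, e and b) and t was not. The part of the epidermis in these values was not tested.

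Of the 16 genes for amine receptors, DopEcR was the highest in the lysates, with 40.5, 35.4 and 42.7 FPKM in the neuronal, glial and fat body lines, a level like that of Vmat. It had 17.8, 8.61 and 14.8 in the IPs. In the neuronal IP the 16 ran from 0.567 FPKM for TyrRII to 24.5 for 5-HT2. With 15.5% of all genes passing as higher in the neuronal IP than in the glial IP, 1 of 4 dopamine receptors, DopR2, passed as higher in the neuronal IP than in the glial IP (5.82 against 0.825 FPKM, q = 2.16e-05 in the authors' deposited table). Of 5 serotonin receptors 4 passed in that direction in the authors' deposited table, all at low levels. They were 5-HT1A (6.15 against 1.08 FPKM), 5-HT1B (3.13 against 0.588), 5-HT7 (1.07 against 0.249) and CG42796 (0.847 against 0.132). The more abundant 5-HT2 did not pass (24.5 against 24.3 FPKM). Of 7 octopamine and tyramine receptors 4 passed in that direction. They were Oamb (14.4 against 3.13 FPKM), Oct-TyrR (4.64 against 0.740), TyrR (2.01 against 0.415) and oa2 (1.35 against 0.207). Against the fat body IP, where 9.32% of genes passed as higher, the counts were 1 of 4, 1 of 5 and 2 of 7 in the authors' deposited table. Against the lysate, the medians in the neuronal IP were -0.87, -0.32 and -0.05 for dopamine, serotonin and octopamine or tyramine receptors on the log2 scale. Those in the glial IP were -1.39, -0.87 and -0.94.

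Genes for the fast transmitters gave a reference for neuronal enzymes and vesicular transporters. All 6 (Cha and VAChT for acetylcholine, Gad1 and VGAT for GABA, VGlut for glutamate and Hdc for histamine) were at least 2-fold lower in the glial IP than in its Input, where 3 of the 9 monoamine genes were lower and 3 higher (0 higher under total scaling), and over all genes 19.7% were lower and 18.7% higher. Their median log2 was -2.33 in glia, beside 0.19 for the 9. In the neuronal IP none of the 6 was 2-fold higher and 2 were lower, VAChT (-2.08) and VGlut (-1.90). Over all genes 19% were higher and 13.1% lower there. VAChT and VGlut are vesicular transporters as Vmat is (-0.38), but VGAT, another, had 26.3 FPKM there against 27.8 in the neuronal Input. Hdc had 36.0 FPKM in the neuronal IP and 2.84 in the glial IP. Vmat at 103 FPKM in the glial IP was 18.2 times VGAT (5.64), the highest of the other vesicular transporters there.

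**Figure D4:**
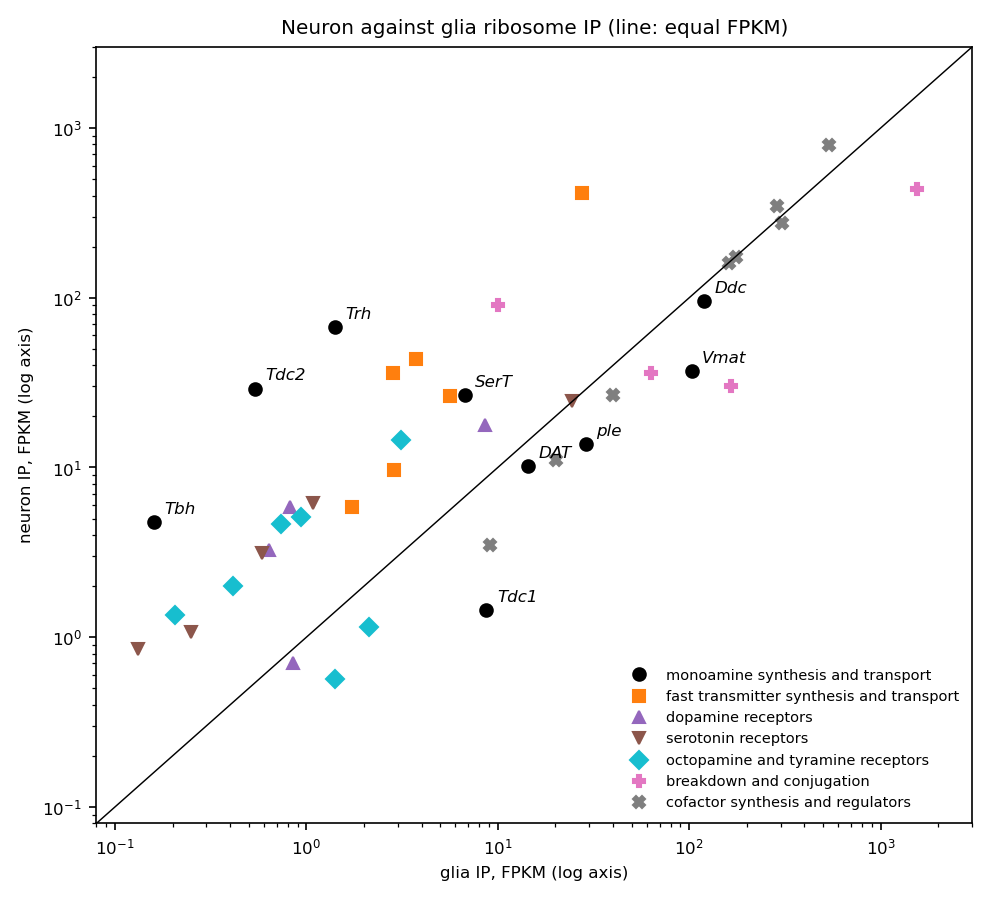
FPKM in the neuronal IP against the glial IP (both log axes) for the 9 genes (black, named) and for the related lists (coloured), with a line at equal levels. Trh, Tdc2, Tbh and SerT lie above the line, as do the 6 fast transmitter genes, while Tdc1, Vmat, ple, DAT and Ddc lie below it.

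Likeness between genes was measured as the root mean square difference of their centred log2 profiles over the 6 groups. Among the 9, Ddc and DAT were closest (0.133), then Trh and Tdc2 (0.214) and DAT and Vmat (0.354), and Trh and Tdc1 were farthest apart (2.04). Among 4227 named genes with at least 5 FPKM in a group, the genes nearest to Trh were Ilp3, an insulin-like peptide gene (0.164), 7B2, a helper of peptide processing (0.190), and Tdc2. Those nearest to Tdc2 were Ast (0.0625), Fmrf (0.116), which encodes FMRFamide-related peptides, and 7B2 (0.128). Those nearest to Tdc1 were Esp (0.0788), Wsck (0.0825) and inx3, an innexin gene (0.107). Those nearest to Vmat were Pxd, a peroxidase gene (0.101), spz3 (0.107) and qsm (0.112). Ddc was nearest to Vha36-3 (0.0950), Optix, an eye homeobox gene (0.102), and DAT. DAT was nearest to Pkg21D (0.116), Optix (0.123) and sgl (0.129). SerT was nearest to l(2)k14710 (0.125), Ipp (0.146) and gammaTub23C (0.154). ple had no neighbour as close, the nearest being drm (0.225), Fas2 (0.243) and Rgl (0.244). Some of these genes met the floor of 5 FPKM only in the group where they were high. Tdc2 and Fmrf met it only in the neuronal IP, and Tdc1 and Esp only in the glial IP. Likeness between such low genes is thus partly set by the floor. With 1 value in each of 6 groups many genes can have like profiles.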

How the data were processed

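Poly(A) RNA of 12 samples in 6 groups was sequenced as paired reads of 100 bases, and each biological replicate pools 4 technical replicates, per the labels' protocols. Reads were handled with TopHat2 2.0.6 on BDGP5, Cufflinks 2.0.2 and Cuffdiff 2.0.2, per the submitters' processing notes. The authors deposited 1 FPKM per gene and group on a linear scale and 1 q-value per gene for each pair of IPs. How replicates were combined and libraries scaled, whether strand was used and which annotation release applied are not given in the sources used here. The depth is unknown and no interval could be given. From these values log2 ratios of FPKM plus a pseudocount of 1, percentiles, within-group ratios and likeness were computed with Python 3.11.15, numpy 2.4.6 and pandas 2.3.3. A gene counted as called where q was under 0.05, or from 2-fold upwards where no q exists, leaving out genes listed at 0, and only genes that reached 1 FPKM somewhere were used. Transcripts and overlaps came from a later build (BDGP6), matched by gene identifier, for all 9 genes, and no coordinates of it are used. The 9 genes and all lists were chosen with earlier results of these data known. All 9 were named, and for likeness the 3 nearest genes by rule, leaving out symbols of the CG and CR type. From the other lists, genes were picked for the text after their values were seen.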

Additional observations from a re-analysis of the deposited data

Results flagged for a closer look

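For Trh and Tdc2 log2 IP/Input pointed in opposite directions in neurons and glia, each past 2-fold. Trh had 2.77 in neurons and -1.37 in glia, a difference of 4.14. Tdc2 had 2.87 and -1.04, a difference of 3.91. With 1 value per group these differences of IP/Input were not tested.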

How the results depend on the processing

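Counts of called genes among the 9 were recomputed 69 times over the 12 comparisons, and 59 stayed within 1.5 times the reported count. The exceptions were these. Under total scaling 3 genes were called between the glial IP and its Input in place of 6. Between the fat body IP and its Input the count was 2 as reported, 8 under median scaling, 8 under total scaling, 1 with a floor of 5 FPKM in either group and 4 from 1.5-fold upwards. Between the neuronal and glial IPs 7 genes were past 2-fold whatever the q, in place of 4. Between the neuronal and glial Inputs 0 were called under median scaling, 0 under total scaling and 3 from 1.5-fold upwards, in place of 1. Between the neuronal and fat body Inputs 1 was called from 1.5-fold upwards in place of 0. Of 108 single log2 ratios, 8 turned sign under median scaling and 9 under total scaling, none of them called. No paired analysis was possible because the deposited values combine both replicates, and for the same reason no replicate could be left out.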

Other observations

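The table holds pairs of names that differ only in case from genes described above. trh (FBgn0262139, trachealess, a transcription factor of the airways) had 2.67, 5.99 and 1.61 FPKM in the neuronal, glial and fat body pull-downs and 4.30 to 5.26 in the Inputs. This order differs from that of Trh, which was highest in the neuronal IP.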
